A study of Rattus norvegicus with 17 samples.

Results

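The solute carriers (SLC genes) of rat vessel endothelium were followed over 4 vascular sites of an arteriovenous fistula model. A member was every probe with a deposited value whose accession maps to a rat symbol that begins with Slc, without the mitochondrial carriers of the Slc25 family (8 probes) and without the organic anion carriers whose symbols begin with Slco (2 probes). The rule gave 65 probes for 62 genes, out of 9879 probes with a value. The array itself carries 240 such probes for 196 genes, and the others were not analysed here. Slc16a6, Slc35a4 and Slc37a4 have 2 probes each, and the probe of Slc28a2 is printed as 10 spots.

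The fistula was made by joining the right superficial epigastric vein of the rat to the common femoral artery, and the vein was tied off beyond 3 side branches, so that the stretch behind the tie kept its venous flow. RNA came from laser-captured luminal endothelium 13 to 14 days after surgery, with 10 captures pooled per sample, and each sample was hybridized in 1 colour to 1 array. The 17 arrays form 4 groups. The NIH vein group (5 arrays) holds epigastric vein that carried arterial flow and had neointimal hyperplasia (NIH), in which cells and matrix build up inside the vessel wall, and the stenotic side branch group (3 arrays) is narrowed side branches under arterial flow. The venous-flow vein group (6 arrays) is vein without pathology, whose source names all give ligation surgery and whose descriptions give fistula surgery, and the femoral artery group (3 arrays) is artery without pathology, taken after the same fistula surgery. No group comes from an unoperated animal. The titles give each of the 17 arrays a number of its own and the design text gives 6 rats; the labels do not say what the numbers stand for, so which arrays share an animal is not known here, and the p-values below treat the arrays as independent. The precision of every value is limited by the number of arrays. In pooled captures such as these, fewer cells of a type and less RNA per cell cannot be told apart.

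Solute carriers are membrane proteins that move ions, nutrients, metabolites and drugs across the plasma membrane and the membranes of organelles, either down a gradient or coupled to the gradient of sodium, protons or another substrate. Families are defined by sequence, and one family can serve unlike substrates. In endothelium the best known members supply glucose (Slc2a1), export lactate (Slc16a1 and Slc16a3), take up adenosine (Slc29a1), bring in amino acids (Slc7 and Slc38 families) and control cell pH and volume (Slc4 and Slc12 families). Slc2a1 and Slc16a3 are textbook targets of the hypoxia response.

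Levels are given as log2 of background-corrected, quantile-normalized intensity. They rank arrays within a probe; they do not rank genes, because probes differ in brightness. The lowest level of any probe on any array was 5.65, set by the offset of the background correction, and a level under 6.15 is called near the floor. The mean over the 17 arrays was near the floor for 29 of the 65 members (44.6%), against 49.5% of all 9879 probes. The median member had a mean level of 6.18 and a range over the arrays of 0.86, against 6.16 and 0.99 for all probes. Of the 65, 3 were near the floor on all arrays, 10 were near it on none, and 16 varied by more than 2 over the arrays.

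The form of the deposit bears on every comparison. The series was deposited both as scanner output and as a table of log2 values, and the 2 forms do not name the arrays alike. Each of the 5 NIH vein arrays matched its own column of the value table, but each of the other 12 scanner files matched the column of another sample. The files named stenotic side branch 1 to 3 hold the values of venous-flow vein 1 to 3, and those named femoral artery 1 to 3 hold the values of venous-flow vein 4 to 6. The files named venous-flow vein 1, 5 and 6 hold the values of stenotic side branch 1 to 3, and those named venous-flow vein 2 to 4 hold the values of femoral artery 1 to 3. Which form carries the right names is not known, so a difference among the stenotic side branch, venous-flow vein and femoral artery groups has no settled direction where the forms disagree. The difference between the NIH vein arrays and the other 12 arrays does not depend on it. Array names below are those of the scanner files unless the value table is named. The background column of 11 of the 17 scanner files (all except NIH vein 1 to 5 and stenotic side branch 1) equals the mean of 2 other arrays' columns at 98.5% of spots, so it was not measured on that array.

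The arrays that stood apart were NIH vein 1 and stenotic side branch 3. On most arrays the repeated spots of 1 probe agreed, with a median SD between spots of 0.045 to 0.28 on the log2 scale, but on these the SD was 0.81 and 0.55. Of 993 spots that were bright over the other arrays, 387 lay more than 1.5 log2 units below that level on NIH vein 1 and 416 on stenotic side branch 3, and 386 of them were the same spots. Slc28a2 shows it directly: on NIH vein 1, 4 of its 10 spots read 76.7 to 95.1 intensity units and the other 6 read 214 to 253, and on stenotic side branch 3, 4 read 65.5 to 71.8 and the other 6 read 199 to 245. Slc37a4, which carries glucose 6-phosphate into the endoplasmic reticulum, shows it between probes. Its 2 probes never differed by more than 0.15 on the other 15 arrays, but read 7.26 and 5.92 on NIH vein 1 and 7.26 and 5.87 on stenotic side branch 3. Of the 18 members whose median over the other 15 arrays was above 6.5, 6 were near the floor on both of these arrays. On both arrays, 16 members were lower than on any other array and 11 were higher. Femoral artery 1 was dim, with a median signal above background of 28.5 intensity units, and 65.2% of the bright spots lay more than 1.5 log2 units low there, as did 38.4% on venous-flow vein 3, whose repeated spots agreed. The count of called members in each of the 7 comparisons, and the members called, are therefore given with all 17 arrays and without NIH vein 1 and stenotic side branch 3.

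**Figure D1:**
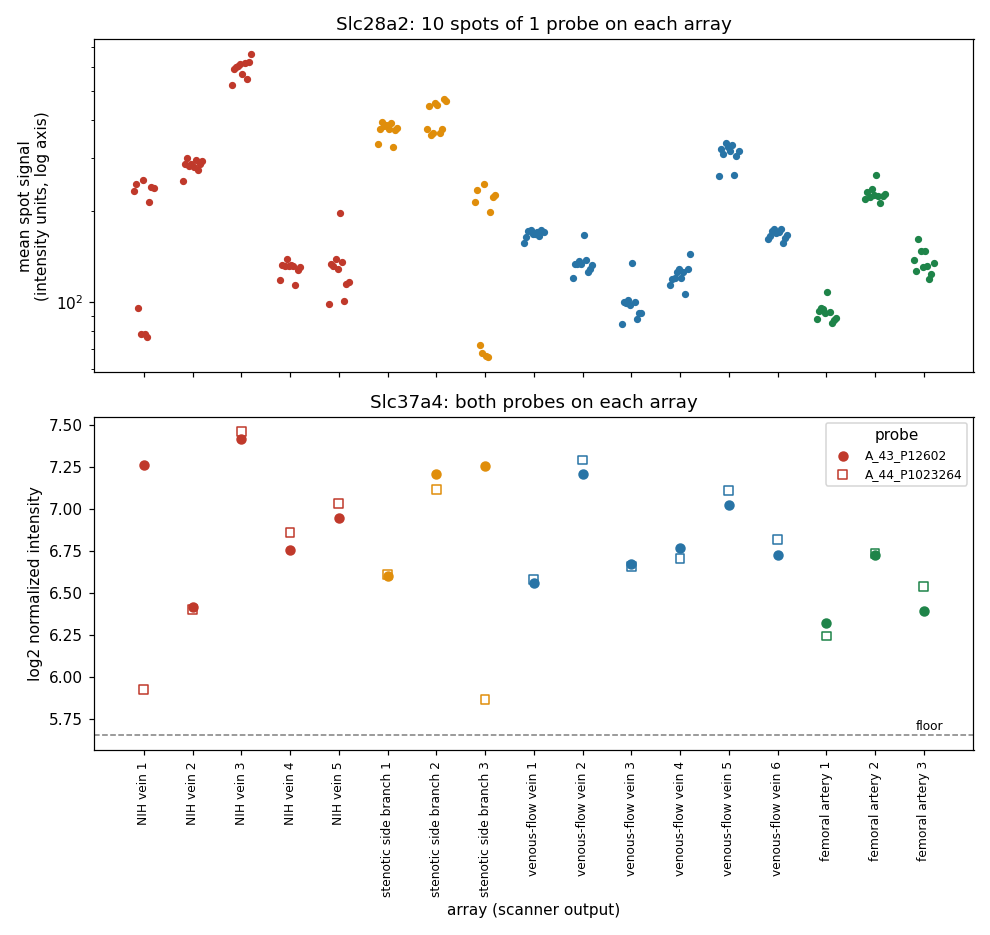
Top, the mean signal (intensity units, log axis) of the 10 spots that carry the Slc28a2 probe on each of the 17 arrays. Bottom, the log2 normalized level of both Slc37a4 probes on each array, with the floor as a dashed line. On NIH vein 1 and stenotic side branch 3 the spots of Slc28a2 fall into 2 clusters and the probes of Slc37a4 are 1.34 and 1.39 apart.

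The endothelial label could hardly be checked, because Kdr was the only one of 16 endothelial markers with a value. Kdr, the main receptor for vascular endothelial growth factor, ranged from 5.83 to 8.91, and its level in the femoral artery files (5.87, 6.29 and 6.01) was at or close to the floor. Fibroblast markers (3 of 7 measured) had a log2 summed level of 13.2 to 15.2 in the NIH vein, 13.2 to 15.2 in the stenotic side branch, 11.05 to 13.4 in the venous-flow vein and 9.40 to 11.5 in the femoral artery files. That sum was set by a single probe of Col1a2, a chain of type I collagen, which reached 15.2 and averaged 14.28, 14.39, 12.20 and 9.99 in these groups. The other Col1a2 probe averaged 5.96 to 6.54 and Dcn, a matrix proteoglycan of fibroblasts, 5.83 to 6.09, both close to the floor. Macrophage and myeloid markers (6 of 14 measured) had a log2 summed level of 10.1 to 12.1 in the stenotic side branch files and of 8.86 to 10.1 in the other 14. Mainly C1qb and Tyrobp set that sum, averaging 9.98 and 9.35 in the stenotic side branch files and at most 7.86 and 7.25 in the other groups. Cd68 averaged 6.99 in the stenotic side branch and 7.23 in the femoral artery files. Csf1r, C1qa and Cd14 averaged 5.77 to 6.21 by group, close to the floor. Smooth muscle markers (3 of 10 measured) had a log2 summed level of 7.40 to 8.04 in all groups. Each of these 3 probes averaged between 5.83 and 6.32 by group, at or close to the floor. Between the stenotic side branch and the venous-flow vein, the median difference was 0.64 for the fibroblast probes (4 of 4 higher) and 0.32 for the myeloid probes (5 of 6 higher) in the scanner form, but -0.40 and -0.69 (0 of 4 and 0 of 6 higher) under the names of the value table. The part of these markers in the differences below was not tested.

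**Figure D2:**
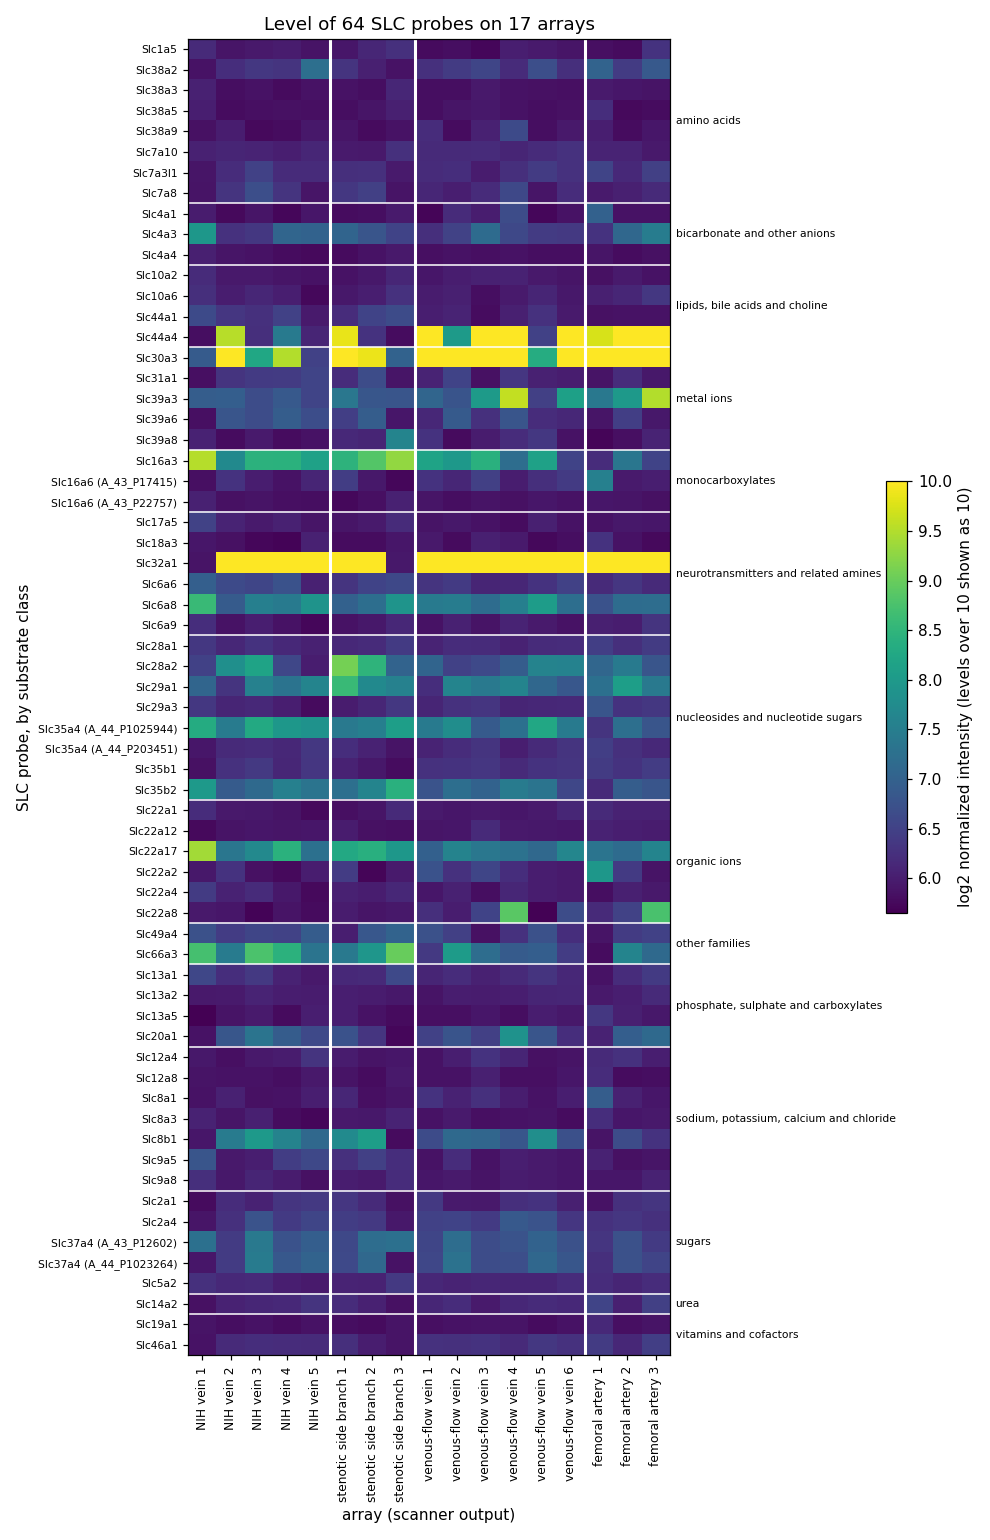
Log2 normalized intensity of 64 SLC probes (rows, by substrate class) on the 17 arrays (columns, by group); levels above 10 have the top colour. Many rows are dark across most arrays, and Slc32a1, Slc30a3 and Slc44a4 are the bright rows. NIH vein 1 and stenotic side branch 3 are dark in Slc32a1 and Slc8b1, which are brighter on nearly all other arrays.

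The brightest member was Slc32a1, the vesicular carrier that loads GABA and glycine into synaptic vesicles. It stood at 14.10 to 15.75 on 15 arrays and at 5.87 and 5.92 on NIH vein 1 and stenotic side branch 3. On 5 arrays (venous-flow vein 1, 4 and 6 and femoral artery 2 and 3) its mean signal was above 65000 intensity units, the ceiling of the scanner, so the levels there are lower bounds and no difference between groups is given. It was the only one of the 65 members to reach that signal. Slc8b1, the mitochondrial exchanger that lets calcium out for sodium or lithium, was at 6.29 to 8.07 on 14 arrays, at 5.87 on the dim femoral artery 1, and at 5.91 and 5.79 on those 2.

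Slc30a3 and Slc44a4 had the widest ranges among the members that were not set by those 2 arrays. Slc30a3 is the zinc carrier that fills synaptic vesicles, and Slc44a4 is a choline-like carrier that also takes up thiamine pyrophosphate in the colon. Slc30a3 read 6.90, 11.57, 8.24, 9.50 and 6.49 in the NIH vein arrays. It read 11.90, 9.87 and 7.02 in the stenotic side branch, 8.34, 12.22 and 13.12 (lowest, median, highest) in the venous-flow vein, and 11.85, 12.95 and 13.44 in the femoral artery files. The NIH vein arrays lay low but overlapped every group other than the femoral artery. Slc44a4 read 5.81, 9.53, 6.24, 7.44 and 6.09 in the NIH vein. It read 9.85, 6.29 and 5.80 in the stenotic side branch, 6.48, 10.40 and 11.22 (lowest, median, highest) in the venous-flow vein, and 9.73, 10.80 and 11.24 in the femoral artery files. The same 7 arrays were lowest for both genes, and 4 of the 7 were NIH vein arrays. On NIH vein 5 their signals above background (80.6 and 54.8 intensity units) were under the 95th percentile of the negative controls (415). Against the other 12 arrays the NIH vein was lower by 2.84 ± 1.03 (SE) for Slc30a3 and by 2.24 ± 0.98 for Slc44a4, and neither passed the test (limma, adjusted p = 0.366 and 0.372). Without NIH vein 1 and stenotic side branch 3 the differences were -2.82 and -2.25 (adjusted p = 0.304 and 0.339).

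At the bright end, Slc30a3 and Slc44a4 shared their 5 highest arrays with Slc39a3, a zinc importer, and Slc22a8, a renal organic anion carrier. These arrays were venous-flow vein 3, 4 and 6 and femoral artery 2 and 3. In them Slc39a3 read 8.02, 9.60, 8.13, 7.99 and 9.50, and at most 7.40 on the other 12. Slc22a8 read 6.53, 8.88, 6.67, 6.51 and 8.75, and at most 6.24 on the other 12. The 2 genes were by far highest on venous-flow vein 4 and femoral artery 3. These 4 members (6.15% of 65) were chosen after their values were seen, and 258 of all 9879 probes (2.61%) had the same 5 highest arrays. In the value table these 5 arrays are femoral artery 2 and 3, stenotic side branch 3 and venous-flow vein 5 and 6, so no NIH vein array is among them in either form. Atp2a3, a calcium pump of the endoplasmic reticulum from the list of other transporters, read 9.21, 10.23, 9.21, 9.18 and 10.31 on them and at most 7.76 elsewhere.

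The promoters of Slc30a3 and Slc44a4 are printed because these genes varied over the same arrays, and that of Slc16a3 because it carried the largest difference that passed the test. Each sequence is RefSeq's on build GRCr8, from 250 bases before to 50 bases after the annotated start, read along the gene's strand, with every GC box (GGGCGG on either strand, overlaps kept) in capitals.
Slc30a3, chr6:30997164-30997463, plus strand: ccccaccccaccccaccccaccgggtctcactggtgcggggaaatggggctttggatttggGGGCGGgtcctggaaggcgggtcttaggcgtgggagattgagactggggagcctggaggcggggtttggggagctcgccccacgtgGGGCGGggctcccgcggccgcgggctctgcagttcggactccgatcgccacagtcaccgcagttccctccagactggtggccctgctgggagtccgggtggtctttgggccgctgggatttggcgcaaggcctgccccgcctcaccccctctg
Slc44a4, chr20:3923805-3924104, minus strand: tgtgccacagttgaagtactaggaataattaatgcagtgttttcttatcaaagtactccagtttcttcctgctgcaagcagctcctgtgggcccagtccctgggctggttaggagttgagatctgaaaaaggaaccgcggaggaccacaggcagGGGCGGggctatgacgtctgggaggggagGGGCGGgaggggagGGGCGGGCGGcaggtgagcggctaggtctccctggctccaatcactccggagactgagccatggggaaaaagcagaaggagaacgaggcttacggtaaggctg
Slc16a3, chr10:106712078-106712377, plus strand: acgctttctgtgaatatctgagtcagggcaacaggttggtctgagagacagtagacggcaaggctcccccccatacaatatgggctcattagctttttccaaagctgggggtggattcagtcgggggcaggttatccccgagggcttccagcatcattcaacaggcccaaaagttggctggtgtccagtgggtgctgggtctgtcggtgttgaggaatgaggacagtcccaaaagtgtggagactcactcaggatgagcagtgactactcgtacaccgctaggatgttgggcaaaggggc
The window of Slc30a3 held 2 GC boxes and that of Slc44a4 held 4, while the window of Slc16a3 held none. Those of Slc39a3 and Slc22a8, which were high on the same arrays as Slc30a3, held 1 and 0. A GC box was present in 56.9% of the 51 member genes with a promoter sequence and in 33.1% of all 33469 promoters of this length. The core of the hypoxia response element (ACGTG on either strand) was present in 23.5% of the members' and 19.3% of all promoters.

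**Figure D3:**
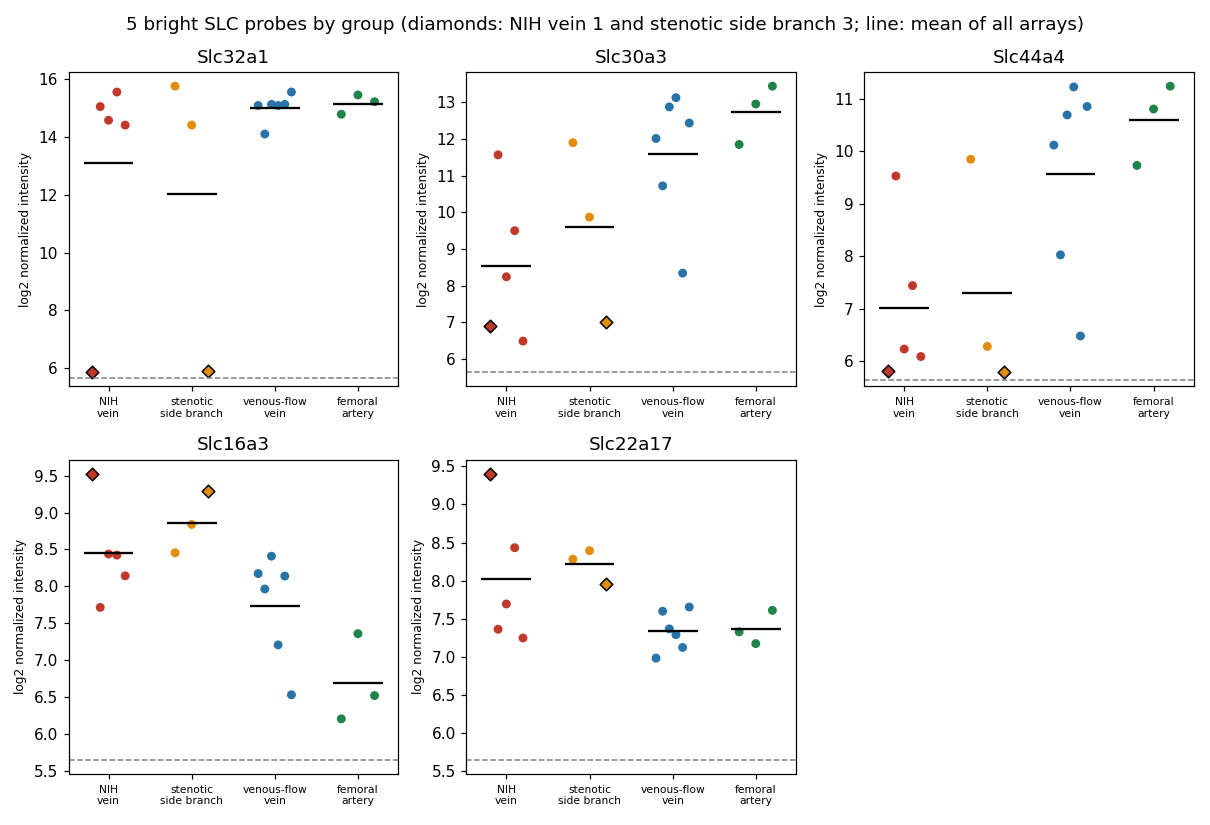
Log2 normalized intensity of 5 SLC probes among those of highest mean level, 1 point per array, by group; the black line is the group mean, the dashed line the floor, and diamonds are NIH vein 1 and stenotic side branch 3. Slc32a1 falls to the floor on those 2 arrays, whereas Slc30a3 and Slc44a4 spread over several log2 units within the vein groups.

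Slc16a3 is the carrier that exports lactate from cells running glycolysis. It read 9.52, 7.72, 8.44, 8.42 and 8.14 in the NIH vein and 8.46, 8.84 and 9.30 in the stenotic side branch files. It read 6.53, 8.05 and 8.41 (lowest, median, highest) in the venous-flow vein and 6.21, 7.36 and 6.52 in the femoral artery files. All 8 arrays of the NIH vein and the stenotic side branch were above all 3 femoral artery files. On NIH vein 5 the Slc16a3 signal above background (343 intensity units) was under the 95th percentile of the negative controls (415). The stenotic side branch was above the femoral artery by 2.17 ± 0.50 (SE), a 4.49-fold difference, and this passed the test across all 9879 probes (limma, adjusted p = 0.0432). It was the only member that did in that comparison, where 1.86% of all probes were called. By unadjusted p under 0.05 there were 14 members, against 23% of all probes; 7 members lay above and 5 below every femoral artery file, against 15.8% and 10.6% of all probes. The call was lost without NIH vein 1 and stenotic side branch 3 (difference 1.95, adjusted p = 0.106, with 0.0506% of all probes called). With femoral artery 1 also left out, 0.0202% were called and no member. It was lost as well without stenotic side branch 2 or 3 or any of the femoral artery arrays singly (adjusted p of 0.0506 to 0.203), and 4 members were called without stenotic side branch 1. In the value table, whose names exchange these arrays, the same gene read 8.03, 7.99 and 6.08 in the stenotic side branch and 7.79, 8.28 and 6.92 in the femoral artery, a difference of -0.30 ± 0.86 (limma, adjusted p = 1.00), with 0 members and 0.192% of all probes called. The direction is therefore not settled by the deposit. Kdr, called in the same comparison (1.95, adjusted p = 0.0465), Tyrobp, an adaptor of myeloid receptors (2.11, adjusted p = 0.0243), and Col1a2 (4.39, adjusted p = 0.0243) moved with it, and their part in the result was not tested. These calls were lost too without NIH vein 1 and stenotic side branch 3 (limma, 1.51, 1.52 and 3.98, adjusted p = 0.178, 0.0512 and 0.0944).

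Between the NIH vein and the femoral artery 2.32% of all probes and 1 of 65 members were called. That member was Slc35a4 by its probe A_44_P1025944, of the nucleotide sugar carrier family. It read 8.32, 7.46, 8.29, 7.94 and 7.87 in the NIH vein and 6.31, 7.24 and 6.80 in the femoral artery files, without overlap. On NIH vein 5 its signal above background (269 intensity units) was under the 95th percentile of the negative controls (415). The difference was 1.19 ± 0.29 (SE), 2.29-fold, at an adjusted p of 0.0494 (limma). Its other probe, A_44_P203451, stayed between 5.88 and 6.45 on all arrays and differed by -0.13 (adjusted p = 0.481), so the 2 probes of the gene did not move together. By unadjusted p under 0.05 there were 14 members, against 24.8% of all probes. Members above every femoral artery file numbered 3 and those below numbered 5, against 9.32% and 6.05% of all probes. The call was lost when NIH vein 1, 3 or 4 or femoral artery 1 or 3 was left out singly (adjusted p of 0.0931 to 0.196), and 4 members were called without NIH vein 2 or 5. Without NIH vein 1 and stenotic side branch 3 the first probe's difference was 1.11 (adjusted p = 0.0741) and 2.28% of all probes were called. Slc8b1 was then the called member, at 7.45, 7.98, 7.59 and 7.12 in the NIH vein against 5.87, 6.66 and 6.29 in the femoral artery files (difference 1.26, 2.39-fold, adjusted p = 0.0467). On NIH vein 5 the Slc8b1 signal above background (143 intensity units) was also under the negative-control percentile (415). When femoral artery 1 was left out as well, no member and 0.0911% of all probes were called, and the smallest member adjusted p was 0.210. Slc16a3 came close in this comparison with all 17 arrays (1.75 ± 0.45, adjusted p = 0.0539). The value table gave 0.77 ± 0.41 for Slc35a4 (limma, adjusted p = 0.499), 0.19 for Slc8b1 (adjusted p = 0.944) and 0.65 for Slc16a3 (adjusted p = 0.778), with 0 members and 0% of all probes called. Col1a2 (4.28, adjusted p = 0.0160) and Thy1, a fibroblast surface protein (0.99, adjusted p = 0.0317), were called in the scanner form beside Slc35a4, and their part was not tested. The call of Col1a2 remained without NIH vein 1 and stenotic side branch 3 (4.29, limma, adjusted p = 0.0314) and that of Thy1 did not (0.90, adjusted p = 0.0593).

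**Figure D4:**
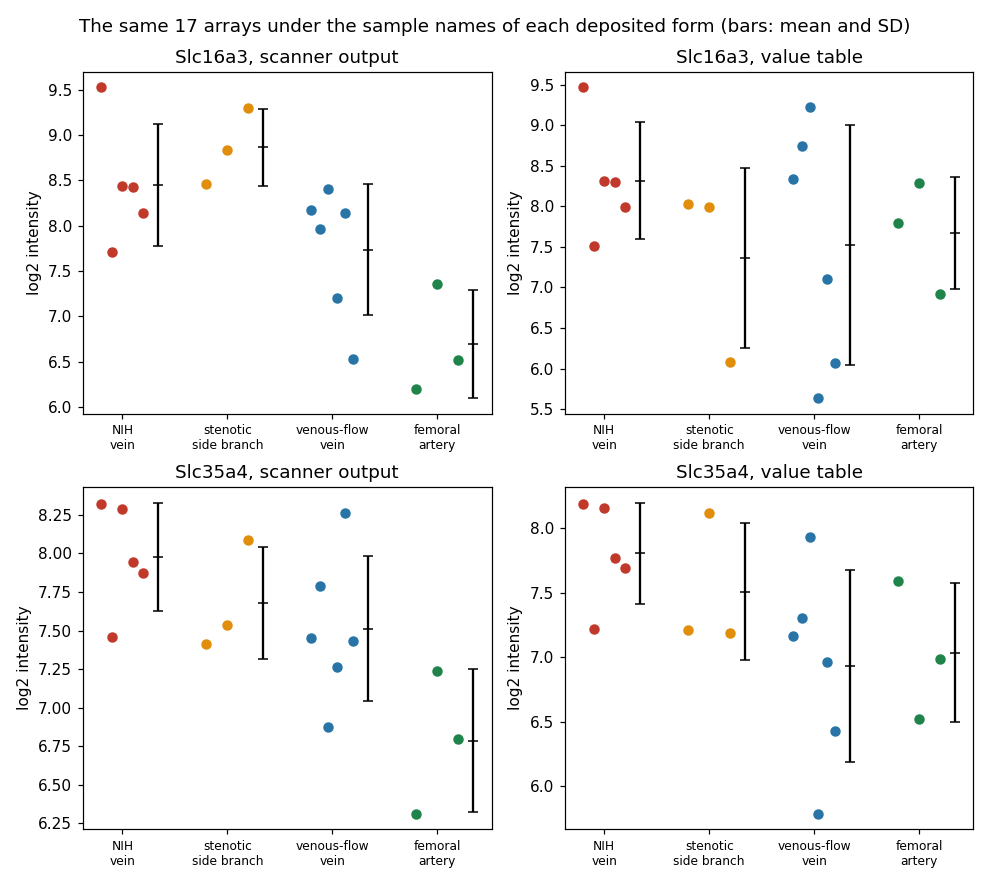
Log2 intensity of Slc16a3 and of Slc35a4 (probe A_44_P1025944) on the same 17 arrays, grouped by the names of the scanner files (left) and by those of the value table (right); each point is 1 array and bars are mean and SD. The femoral artery files are lowest on the left, with means of 6.70 and 6.78, but not on the right.

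No other comparison called a member. Between the NIH vein and the other 12 arrays, the one that both forms name alike, limma called 0 members and 0.132% of all probes, and 6 members had an unadjusted p under 0.05, against 12.5% of all probes. Without NIH vein 1 and stenotic side branch 3 it called 0 members and 0.0911% of all probes. The median difference of the 65 members was -0.02, with 27 above 0, against 0.01 and 54.3% of all probes above 0. The 3 members of smallest unadjusted p were Slc30a3, described above, Slc35a4 (0.61 ± 0.25, adjusted p = 0.367) and Slc6a6, the taurine carrier (0.27 ± 0.12, adjusted p = 0.368). Slc6a6 read 6.96, 6.63, 6.55, 6.74 and 6.05 in the NIH vein and 6.11 to 6.59 on the other arrays, and its difference was 0.18 without NIH vein 1 and 0.41 without NIH vein 5. In the value table the same differences were -2.99, 0.71 and 0.36, and 0 members and 0.0911% of all probes were called. No member separated the NIH vein from all other arrays in either form, where 0.101% of all probes lay above and 0% below.

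**Figure D5:**
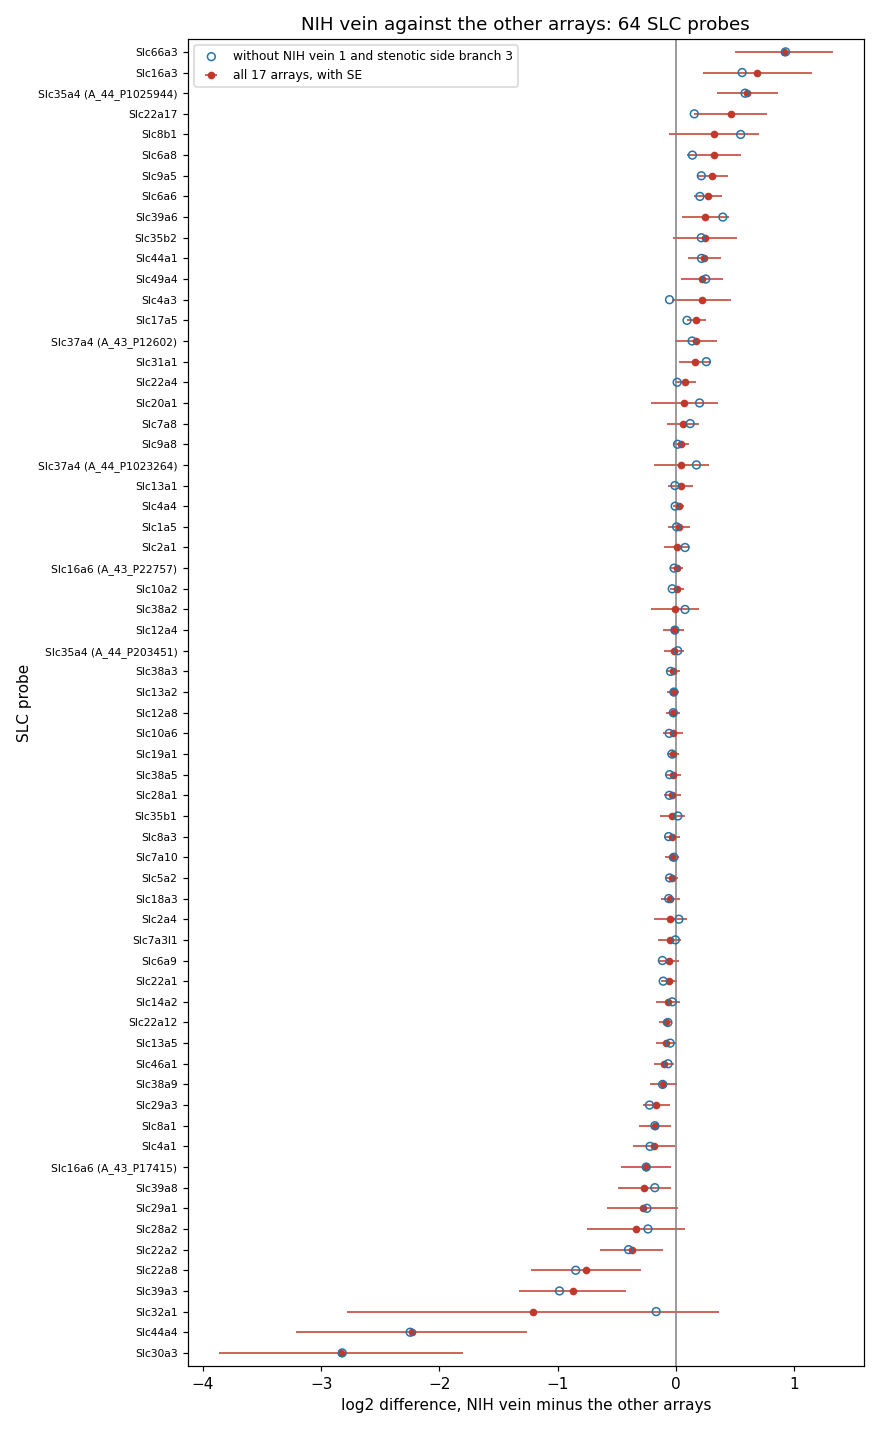
Log2 difference between the 5 NIH vein arrays and the other 12 for 64 SLC probes, with the standard error of the limma fit (filled points), and the same without NIH vein 1 and stenotic side branch 3 (open points). Most members lie within 0.5 of 0; Slc30a3 and Slc44a4 are lowest at -2.84 and -2.24, and the point of Slc32a1 is not a measured difference, because that probe was at the scanner's ceiling on 5 of the other arrays.

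The NIH vein against the venous-flow vein sets vein that took arterial flow and thickened against vein that kept venous flow. It gave 0 called members, with 0.0405% of all probes called and 7 members at an unadjusted p under 0.05, against 16.2% of all probes (limma). Without NIH vein 1 and stenotic side branch 3 it gave 0 members and 0.121% of all probes. Slc66a3, a small membrane protein with PQ-loop repeats, read 8.72, 7.46, 8.77, 8.45 and 7.32 in the NIH vein against 6.38, 6.92 and 8.04 (lowest, median, highest) in the venous-flow vein. On NIH vein 5 its signal above background (169 intensity units) was under the 95th percentile of the negative controls (415). The groups overlapped, and the difference of 1.16 ± 0.42 did not pass (adjusted p = 0.196). Slc9a5, a neuronal sodium-proton exchanger, differed by 0.39 ± 0.14 (adjusted p = 0.190) at levels of 5.86 to 6.79, and Slc30a3 by -3.04 ± 1.08 (adjusted p = 0.192). In the value table these 3 differences were 0.80, 0.32 and -2.77, and 0 members and 0% of all probes were called.

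The stenotic side branch against the venous-flow vein called 0 members and 0.405% of all probes, with 10 members at an unadjusted p under 0.05, against 17.2% of all probes (limma). Without NIH vein 1 and stenotic side branch 3 it called 0 members and 0.101% of all probes. Slc16a3 differed by 1.13 ± 0.43 (adjusted p = 0.213). Slc44a1, a choline carrier, differed by 0.43 ± 0.14 (adjusted p = 0.148), and Slc35b1, the ATP and ADP exchanger of the endoplasmic reticulum, by -0.35 ± 0.10 (adjusted p = 0.127), both at levels close to the floor. All 3 had the opposite sign in the value table (-0.15, -0.09 and 0.21), where 0 members and 0.172% of all probes were called. Of the 65 members, 3 lay above and 1 below every venous-flow vein file, against 7% and 4.86% of all probes.

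Slc28a2, a sodium-coupled carrier of purine nucleosides, had the largest of the 3 differences named between the stenotic side branch and the NIH vein. It read 9.09, 8.48 and 7.04 in the stenotic side branch files against 6.499, 7.82, 8.18, 6.57 and 6.01 in the NIH vein. Before background correction and normalization, the median signal of its 10 spots was highest on NIH vein 3, at 602 intensity units. It was 376 on stenotic side branch 1 and 410 on stenotic side branch 2. The third stenotic level and the first NIH level come from the arrays whose 10 spots disagreed. The difference was 1.19 ± 0.51 with all arrays and 1.64 without those 2 (limma, adjusted p = 1.00 and 0.813). It was 0.75 without stenotic side branch 1. Tyrobp, at 8.91, 8.62 and 10.52 in the stenotic side branch files and 6.96 to 7.46 in the NIH vein, was called in this comparison (2.18, adjusted p = 0.0341) but not without those 2 arrays (1.54, adjusted p = 0.0981). Slc39a8, a zinc and manganese importer, was at 6.15, 6.11 and 7.61 against 5.79 to 6.07, and its difference of 0.72 came down to 0.27 without those 2 arrays. Slc35b1 differed by -0.26 ± 0.11 (adjusted p = 1.00). In this comparison limma called 0 members and 0.0911% of all probes, with 4 members at an unadjusted p under 0.05, against 3.59% of all probes, and without those 2 arrays 0 members and 0.0101%. The value table gave 0 members and 0.283% of all probes, and a Slc28a2 difference of 0.54. Between the femoral artery and the venous-flow vein, 0 members and 0% of all probes were called in either form and without those 2 arrays; 5 members had an unadjusted p under 0.05 in the scanner form, against 4.92% of all probes, and none in the value table. The members named there were Slc16a3 (-1.04), Slc35a4 (-0.73) and Slc28a1 (0.21), each at an adjusted p of 0.863 and each with the opposite sign in the value table (0.15, 0.11 and -0.22).

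Among the other nucleoside carriers, Slc29a1, the equilibrative carrier that takes up adenosine, stood at 6.22 to 8.60 and was highest on stenotic side branch 1. Before normalization its signal above background was highest on NIH vein 3, at 368 intensity units against 237 on stenotic side branch 1. Slc29a3, of lysosomes, and Slc28a1, a pyrimidine carrier, stayed between 5.78 and 6.81. Slc35b2, which brings the sulphate donor PAPS into the Golgi, was at 7.24, 7.61 and 8.42 in the stenotic side branch and 6.17, 6.93 and 6.80 in the femoral artery files, a difference of 1.12 that did not pass (limma, adjusted p = 0.0892). Of the 8 probes for nucleosides and nucleotide sugars, none had a mean near the floor. The means of Slc29a3, Slc28a1, Slc35b1 and the Slc35a4 probe A_44_P203451 were just above that limit, at 6.17 to 6.22.

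The glucose and amino acid carriers gave low signal. Slc2a1, the basal glucose carrier of endothelium and a hypoxia target like Slc16a3, lay between 5.78 and 6.37 on all arrays, with its mean near the floor. Slc2a4, the insulin-responsive glucose carrier, lay between 5.90 and 6.87. Of the 8 amino acid carriers, 5 had a mean near the floor. Slc38a2, which takes up small neutral amino acids with sodium, stood at 5.86 to 7.24. Slc1a5, a glutamine exchanger, did not exceed 6.30, and Slc7a8, a light chain for large neutral amino acids, did not exceed 6.69. Slc6a8, the creatine carrier, was well above the floor at 6.75 to 8.59, and its groups overlapped. On NIH vein 5 and stenotic side branch 1 its signal above background was 271 and 70.5 intensity units. Both were under the 95th percentile of the negative controls there (415 and 83.9).

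Among ion carriers, 6 of the 8 carriers of sodium, potassium, calcium and chloride had a mean near the floor, among them the sodium-calcium exchangers Slc8a1 and Slc8a3 and the potassium-chloride cotransporter Slc12a4. Slc20a1, a sodium-phosphate cotransporter, stood at 6.07 to 7.87 apart from the 2 arrays, where it read 5.86 and 5.72. Slc4a3, a chloride-bicarbonate exchanger, stood at 6.25 to 7.95. Slc4a1, the anion exchanger of red cells, was near the floor except on femoral artery 1 (6.996), venous-flow vein 4 (6.66) and venous-flow vein 2 (6.18). Before normalization the order was the reverse, with a Slc4a1 signal above background of 36.7 intensity units on femoral artery 1 and 61.7 on venous-flow vein 4. The background subtracted there was not measured on either array. By level, Alas2, which makes haem in red cells, was also highest on femoral artery 1 at 7.54. So was Hbb, the beta chain of haemoglobin, at 8.10, but on venous-flow vein 4 they read 5.96 and 5.84. Among metal carriers, Slc39a6, a zinc importer, lay at 5.84 to 6.94, and Slc31a1, the copper importer, at 5.83 to 6.67.

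Of the 6 organic ion carriers, known from kidney and liver, 3 had a mean near the floor. Slc22a17, known as a receptor for lipocalin-2, was well above it. On NIH vein 5 its signal above background (158 intensity units) was under the 95th percentile of the negative controls (415). Slc22a17 read 9.40, 7.36, 7.69, 8.43 and 7.25 in the NIH vein and 8.28, 8.39 and 7.96 in the stenotic side branch files. It read 6.98, 7.33 and 7.65 (lowest, median, highest) in the venous-flow vein and 7.33, 7.17 and 7.61 in the femoral artery files. The stenotic side branch files lay above both of the last groups, by 0.88 ± 0.36 (limma, adjusted p = 0.244) and 0.84 ± 0.42 (adjusted p = 0.240). In the value table both differences were negative, at -0.62 and -0.20. Slc22a2, an organic cation carrier, was at 7.96 on the dim femoral artery 1 and at most 6.74 elsewhere. Its signal above background was not highest there, at 58.4 intensity units against 89.5 on venous-flow vein 1 (level 6.74). The background subtracted was not measured on either of these arrays. The folate carriers Slc19a1 and Slc46a1 did not exceed 6.46, and the urea carrier Slc14a2 did not exceed 6.54.

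Other transporters gave no called probe in any of the 7 comparisons of the scanner form: 8 of the 14 listed genes of the sodium-potassium pump, 3 of 13 other P-type pumps, 5 of 16 proton pump subunits, 6 of 33 ABC transporters, 2 of 16 Slco carriers and 2 of 11 aquaporins were measured. Against the other arrays, the NIH vein was higher for 4 of the 6 ABC transporter probes, with a median difference of 0.32, against 54.3% of all probes higher. The ABC transporters Abcc5 and Abca2 were highest on NIH vein 1 (9.996 and 8.87), where repeated spots disagreed. Of the regulators and partners of carriers, 9 of 24 were measured, and Tsc22d3, a target of glucocorticoids, was called in the value table only, between the stenotic side branch and the NIH vein (2.13, adjusted p = 0.00230) and between the stenotic side branch and the femoral artery (1.70, adjusted p = 0.0125). Bsg, which brings Slc16a3 to the membrane, stood at 6.27 to 7.67, and Hif1a, a subunit of the hypoxia response factor, at 6.70 to 9.09.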

How the data were processed

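The scanner files give spot intensities, and the log2 value table was made and quantile normalized by the depositors, per the labels; all 17 columns of that table were used. The depositors' software is not stated in the labels. From the deposited mean signal and background intensity columns, 10000 spots with a value were corrected by normexp (offset 50), taken to log2, quantile normalized and averaged to 9879 probes (limma 3.58.1, R 4.3.3). Probes were named through RefSeq accessions. Means per group were fitted over all 17 arrays, with the NIH vein against the other arrays as 2 groups, moderated by eBayes, and adjusted by Benjamini-Hochberg over all probes; an adjusted p under 0.05 was called. The members, classes, lists and comparisons were chosen with earlier results of these data known. Named members were the 6 of highest mean, those called, or the 3 of smallest unadjusted p in each comparison; 1 member is not reported here by name, and others named were chosen after their values were seen. On simulated data the fit recovered 58 to 82% of changes of log2 1 and 81 to 94% of log2 2. It made 6 to 11 false calls among 9679 unchanged probes. Recovery on the real arrays, where differences near the floor are compressed and some arrays stood apart, was not tested. Replicate numbers did not pair arrays (correlations of deviations -0.61 to 0.32). On NIH vein 1 to 4, all 65 members exceeded the 95th percentile of the negative controls, as did at least 99.0% of all spots; 1 member did on NIH vein 5, and 13 on stenotic side branch 1.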

Additional observations from a re-analysis of the deposited data

Results flagged for a closer look

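Only the NIH vein and venous-flow vein were screened, because the stenotic side branch and femoral artery groups have 3 arrays each, too few for the rule. Of 28 group-wise sets of named levels, 2 held an array far from the rest of its group, where chance flags about 1 in 20. Slc32a1 read 5.87 on NIH vein 1, against 14.40 on the nearest array of that group. Slc32a1 also read 14.10 on venous-flow vein 2, against 15.08 on the nearest and 15.54 on the highest array of its group. That gap is not a measured difference, because 3 of the 6 venous-flow arrays (1, 4 and 6) were at the scanner's ceiling for this probe, and venous-flow vein 2 and 5 had mean signals of 17782.5 and 18551 intensity units before normalization. NIH vein 1 is one of the arrays on which repeated spots of 1 probe disagreed; venous-flow vein 2 is not.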

How the results depend on the processing

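The count of called members stayed at 0 under all alternatives in the 5 comparisons other than those with the femoral artery named below. Against 1 member (Slc35a4) between the NIH vein and the femoral artery, 0 were called with the value table, plain background subtraction, no background correction, median scaling, only the groups compared, and the replicate number as a block. With Slc16a3 added, 2 were called with an offset of 16 and 3 (with Slc30a3) among the probes brighter than the median; single arrays left out gave 0 to 4. Against 1 member (Slc16a3) between the stenotic side branch and the femoral artery, 0 were called with the value table, median scaling, only the groups compared and the replicate block, and 0 to 4 with single arrays left out. The following were chosen after the data were seen: without NIH vein 1 and stenotic side branch 3, 1 and 0 were called; in the value table without the same arrays 0 and 0; without femoral artery 1 as well 0 and 0. With the replicate block the adjusted p was 0.216 for Slc35a4 and 0.106 for Slc16a3, and the block changed no other call. The labels do not say that the replicate numbers pair the arrays. Over leave-one-out fits the adjusted p ran from 0.0272 to 0.196 for Slc35a4 and from 0.0319 to 0.203 for Slc16a3. Of 375 values for named members under alternatives, 337 kept direction and call, 24 lost the call and 14 changed sign, all 14 with the value table. There the stenotic side branch minus venous-flow vein difference was 0.21 for Slc35b1, -0.0896 for Slc44a1 and -0.15 for Slc16a3, and stenotic minus NIH vein was 0.16 for Slc35b1. Femoral artery minus venous-flow vein was -0.22 for Slc28a1, 0.11 for Slc35a4 and 0.15 for Slc16a3, and stenotic minus femoral artery was -0.30 for Slc16a3. Without the same 2 arrays these were 0.11 (Slc35b1, against the venous-flow vein), 0.0318 (Slc35b1, against the NIH vein), -0.19, 0.31, 0.49 and -0.30. By construction the value table exchanges names among 12 arrays; other causes were not tested. Signal over background limits the 29 members near the floor, where differences are compressed by the offset.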
